A study of Homo sapiens with 38 samples.

Results

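The p53 pathway was described through 33 genes, chosen by symbol as regulators, partners and established transcriptional targets of the p53 protein. All 33 were found among the 60252 genes of each of 2 expression tables, 1 for RWPE-1 and 1 for C4-2B cells. p53 is a transcription factor that is held at a low level by the ubiquitin ligase MDM2 and its relative MDM4, and it accumulates after DNA damage, oncogene activity or other stress. It then switches on genes that stop the cell cycle, promote cell death, repair DNA, adjust metabolism and, through MDM2 and the phosphatase PPM1D, restrain p53 itself. Many cell cycle genes fall at the same time, because CDKN1A (p21) blocks cyclin-dependent kinases and keeps RB-family proteins active.

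RWPE-1 is a line of non-malignant prostate epithelium immortalised with a human papillomavirus, whose E6 protein promotes the degradation of p53 and whose E7 protein binds RB. C4-2B cells are a tumorigenic, bone-seeking subline of the prostate cancer line LNCaP. The study removed, by genome editing in both lines, a region of 7p15.2 tied to prostate cancer risk, and it forced the expression of HOXA13, a homeobox gene of that chromosome arm, in RWPE-1; RNA-seq values were deposited as TPM, an abundance scaled by transcript length and by library total that can be compared between genes. Libraries numbered 36, 18 for each line.

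In RWPE-1 there were 7 libraries with the risk region deleted and 5 wild-type controls, both labelled as genome editing samples. A further 3 libraries came from cells transfected with a HOXA13 expression vector and 3 from cells that received the matching eGFP plasmid. These were harvested after 48 hours, and the 10% brightest eGFP-positive cells of each flask were sorted. In C4-2B there were 3 wild-type control lines (control1, control2 and control3) and 3 full-deletion clones (m, le5 and ld9), each with 3 libraries. The C4-2B clones were edited in 2 rounds, the second with puromycin selection, and the 3 clones descend from 2 colonies of the first round; the labels do not say which clone came from which colony or how the control lines were made. The labels leave unsaid whether separate clones or cultures lie behind the RWPE-1 edited libraries, and p-values there measure the spread between these libraries, which may be technical.

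Markers matched the line labels. All 7 basal markers were lower in C4-2B than in RWPE-1 and 7 of 9 luminal markers were higher, by the same measure as used for the members below. HOXA13 followed the labels in RWPE-1, with 684, 717 and 842 TPM in the HOXA13 libraries, 3.77, 1.79 and 2.44 in the eGFP libraries, 0.65 to 2.41 in the controls and 5.27 to 10.1 in the deletion libraries. Each library had 13661 to 15256 genes at 1 TPM or more. Library 1 of C4-2B control3 stood apart: mitochondrial genes held 28.4% of its TPM, against 10.8% to 16.7% in the other 17 C4-2B libraries, and 13 of the 33 members were lower in it, and 4 higher, than in any other C4-2B library. Values without it are given beside the results that rest on it. Libraries 2 and 3 of control3 had 14335 and 14543 genes at 1 TPM or more, against 14619 to 14848 in the other C4-2B lines. Mitochondrial genes held 16.7% and 15.3% of their TPM, against 10.8% to 12.7% in control1 and control2 and 12.5% to 15.8% in the deletion lines.

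p53 binds a pair of decamers, and the RefSeq promoter windows of the members (GRCh38.p14, 250 bases before to 50 after a transcription start) were searched on both strands for this consensus p53 response element. The search required the central C and G of each decamer, allowed a spacer of up to 13 bases and counted mismatches at the other positions. Windows were found for 28 of the 33 members. An element with at most 2 mismatches lay in 5 of these 28 genes (17.9%), against 989 of all 27305 genes with a window (3.62%); a match describes letters, not binding. The sequences shown are the best-matching elements near a start among the members searched. Those of PMAIP1 and GDF15 are added, as the members with the first and the third largest rise in the eGFP libraries over the controls. The best element of CDKN1A, which had the second largest rise, had 4 mismatches. PLK2, SESN1 and ZMAT3 also had elements with 3 mismatches and were not called in that comparison. An element with at most 3 mismatches lay in 10 of the 28 members (35.7%), against 15.3% of all genes with a window. Capitals mark the decamers and lower case the spacer, 5′ to 3′ on the gene's strand.
DDB2, 0 mismatches, chr11:47214979-47214999, plus strand: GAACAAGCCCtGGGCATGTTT
AEN, 2 mismatches, chr15:88621306-88621325, plus strand: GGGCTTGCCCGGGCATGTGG
FAS, 2 mismatches, chr10:88991309-88991328, plus strand: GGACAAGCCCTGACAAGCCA
FDXR, 2 mismatches, chr17:74872996-74873025, minus strand: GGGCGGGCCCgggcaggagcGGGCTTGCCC
MDM2, 2 mismatches, chr12:68808923-68808942, plus strand: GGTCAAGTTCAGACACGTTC
PMAIP1, 3 mismatches, chr18:59899811-59899830, plus strand: GAGCGTGTCCGGGCAGGTCG
GDF15, 3 mismatches, chr19:18386186-18386205, plus strand: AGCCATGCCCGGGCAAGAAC

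The DDB2 element began 6 bases after the start, and the AEN element ended 15 bases before it. The AEN and PMAIP1 promoters are printed in full for the 250 bases before the start. Both genes were higher in the eGFP libraries than in the controls, and their elements sit at different distances. The PMAIP1 element begins 185 bases upstream and the AEN element 34. Capitals mark the element.
AEN promoter, chr15:88621090-88621339, plus strand: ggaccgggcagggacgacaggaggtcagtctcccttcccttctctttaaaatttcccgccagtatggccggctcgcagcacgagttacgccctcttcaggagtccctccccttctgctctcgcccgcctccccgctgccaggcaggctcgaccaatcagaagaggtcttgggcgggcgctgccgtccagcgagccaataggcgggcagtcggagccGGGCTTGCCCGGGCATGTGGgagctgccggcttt
PMAIP1 promoter, chr18:59899746-59899995, plus strand: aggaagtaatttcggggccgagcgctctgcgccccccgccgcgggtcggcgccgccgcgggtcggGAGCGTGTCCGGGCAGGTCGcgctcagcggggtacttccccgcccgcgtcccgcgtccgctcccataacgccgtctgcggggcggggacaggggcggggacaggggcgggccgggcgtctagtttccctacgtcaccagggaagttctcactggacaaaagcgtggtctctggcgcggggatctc

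Several p53 targets that were abundant in RWPE-1 were scarce in C4-2B. The members with the highest median in RWPE-1 were CDKN2A and SFN, and in C4-2B CCNG1, GDF15 and MDM2. A gene was said to stand apart where no library of one line overlapped any of the other and the medians were at least 2-fold apart. By this measure 10 of 33 members (30.3%) were lower in C4-2B and 0 were higher, against 14.0% lower and 13.3% higher (27.3% in all) among the 13569 genes measured. The tables were deposited separately and the lines differ in origin and medium, so no test was made; in bulk RNA, fewer cells with a transcript and less of it per cell cannot be told apart. The members' median difference, C4-2B minus RWPE-1 on the log2(TPM + 1) scale, was -0.29, and that of all genes 0.15.

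**Figure D1:**
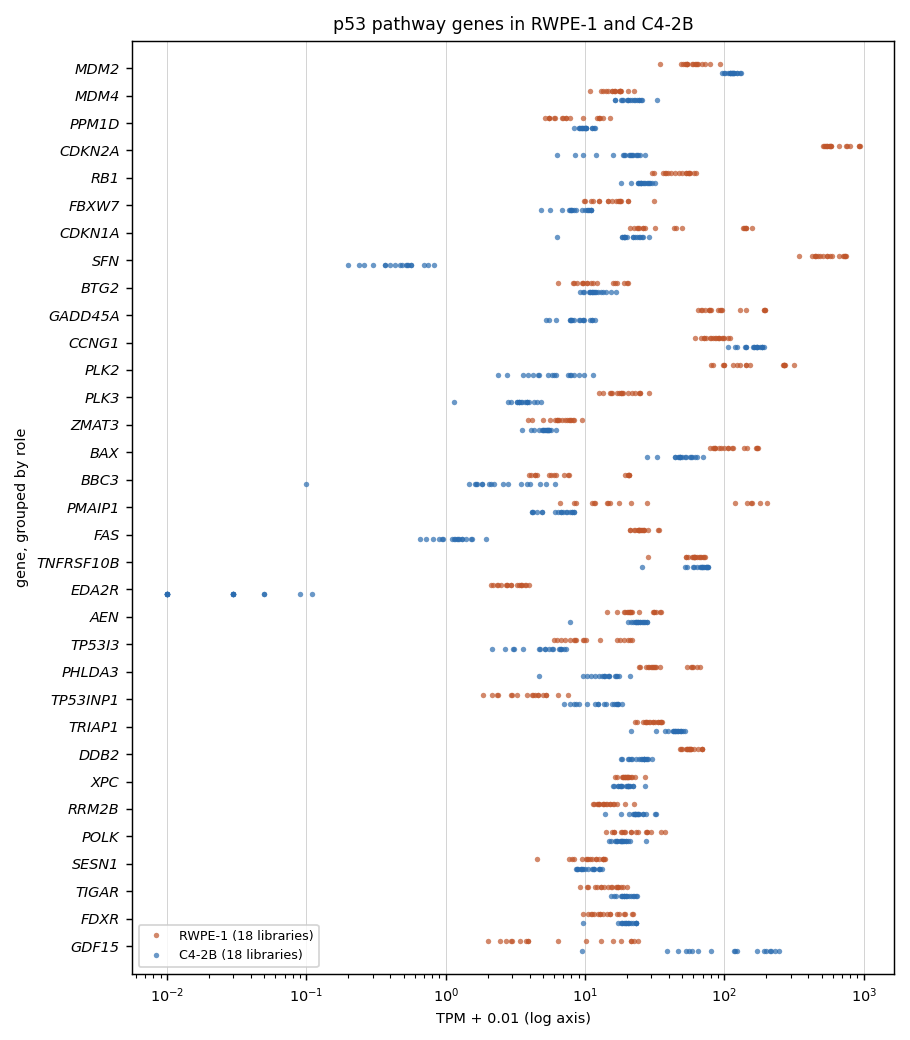
TPM of the 33 members in the 18 RWPE-1 libraries (orange) and 18 C4-2B libraries (blue), on a log axis after adding 0.01, 1 point per library. SFN, CDKN2A, PLK2, FAS and EDA2R separate the lines most clearly, and CDKN1A, PMAIP1 and GADD45A spread widely within RWPE-1.

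Among the regulators, CDKN2A, which encodes the cell cycle inhibitor p16INK4a and the MDM2 inhibitor p14ARF, had a lowest, median and highest level of 513, 580.0 and 938 TPM in RWPE-1 and 6.24, 20.9 and 27.1 TPM in C4-2B. Its RWPE-1 median was 27.7-fold higher and the lowest RWPE-1 library lay far above the highest C4-2B library. MDM2 went the other way, at 34.6, 59.2 and 93.2 TPM in RWPE-1 and 96.5, 113.9 and 132.8 TPM in C4-2B. The ranges did not overlap, but the medians were 1.92-fold apart, just under the 2-fold limit. RB1 and FBXW7, which encodes the substrate receptor of a ubiquitin ligase, had lower medians in C4-2B (25.6 against 48.5 TPM and 8.45 against 16.1 TPM) with ranges that overlapped at their edges. MDM4 (21.4 against 16.3 TPM) and PPM1D (9.90 against 7.32 TPM) had overlapping ranges.

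Of the 8 cell cycle arrest genes, 4 were lower in C4-2B. SFN encodes stratifin, an epithelial protein that retains mitotic kinases in the cytoplasm. It was at 342, 548 and 743 TPM (lowest, median, highest) in RWPE-1 and at 0.19, 0.47 and 0.82 TPM in C4-2B, under 1 TPM in every C4-2B library. GADD45A, a stress-induced growth arrest gene, was at 65.0, 91.7 and 197 TPM in RWPE-1 and 5.24, 8.65 and 11.7 TPM in C4-2B. The stress-responsive polo-like kinases followed: PLK2 was at 80.3, 143.8 and 316 TPM against 2.37, 5.88 and 11.4 TPM, and PLK3 at 12.5, 18.4 and 28.8 TPM against 1.14, 3.50 and 4.84 TPM. Median ratios, RWPE-1 over C4-2B, were 10.6 for GADD45A, 24.4 for PLK2 and 5.26 for PLK3, with no overlap. CDKN1A, the p21 gene, was not among them: its medians were 37.6 TPM in RWPE-1 and 21.01 TPM in C4-2B, and its ranges overlapped. That RWPE-1 value lay between the group medians of CDKN1A, which were 26.2 TPM in the controls, 26.0 TPM with the deletion, 138 TPM with eGFP and 144 TPM with HOXA13. CCNG1, which encodes cyclin G1, a partner of a phosphatase that acts on MDM2, had the opposite order, at 86.4 TPM in RWPE-1 and 167 TPM in C4-2B.

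Of the 11 apoptosis and receptor genes, 4 were lower in C4-2B. The death receptor gene FAS was at 20.98, 24.7 and 34.1 TPM in RWPE-1 and 0.65, 1.18 and 1.94 TPM in C4-2B, a median ratio of 21.1. EDA2R, the receptor for ectodysplasin A2, was at 2.12, 2.92 and 3.94 TPM in RWPE-1 and 0.00, 0.02 and 0.10 TPM in C4-2B. BAX, the mitochondrial pore former, was at 78.8, 106.2 and 174.8 TPM against 28.0, 49.0 and 70.9 TPM. PHLDA3, a repressor of AKT, was at 24.6, 31.7 and 66.4 TPM against 4.64, 13.8 and 21.1 TPM. FAS and EDA2R were thus near the floor in C4-2B, while BAX and PHLDA3 differed 2.17-fold and 2.30-fold over all libraries. In the wild-type control libraries alone, BAX and PHLDA3 did not stand apart. The other death receptor gene, TNFRSF10B, did not separate the lines (61.0 and 69.5 TPM). Nor did AEN, an apoptosis nuclease (21.3 and 24.1 TPM).

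In the repair group DDB2, a nucleotide excision repair gene, was at 48.4, 56.2 and 69.2 TPM in RWPE-1 and 18.04, 25.5 and 30.4 TPM in C4-2B, without overlap. XPC, its partner in damage recognition, had nearly equal medians of 19.8 and 19.9 TPM. GDF15, a secreted stress cytokine, had the largest difference toward C4-2B, with 2.01, 5.14 and 23.9 TPM in RWPE-1 and 9.56, 119 and 248 TPM in C4-2B. Its ranges overlapped only through library 1 of control3, and the next lowest C4-2B library was at 38.6 TPM. Without that library GDF15 and TP53INP1, an autophagy and cell death gene, were higher in C4-2B, and the same 10 members were lower. In the wild-type control libraries alone, MDM2, TP53INP1 and the ribonucleotide reductase gene RRM2B were higher in C4-2B and 9 members were lower, 8 of them among the 10. BAX and PHLDA3 were not among these 9, and RB1 was. With 5 and 9 libraries in place of 18 each, ranges separate more readily, so the shares of all genes above do not apply. The shares of all genes for the control libraries alone, and for the set without library 1 of control3, are not given here. Neither count of members can therefore be set against all genes.

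The largest movement of the pathway within a line was between the eGFP libraries and the wild-type controls of RWPE-1. Neither group carries the HOXA13 vector or the deletion. Plasmid transfection, sorting for bright cells and any difference in preparation go together here and cannot be told apart. Differences were tested with limma on log2(TPM + 1), with p-values adjusted by Benjamini-Hochberg over the 15066 genes tested, and a gene was called at an adjusted p under 0.05. In the eGFP libraries 16 of 33 members (48.5%) rose and 3 (9.09%) fell, against 24.4% and 22.7% of all genes; 47.1% of all genes were called in either direction. For 17 members every eGFP library was above every control and for 3 below, against 25.7% and 22.9% of all genes (48.6% in either direction). The members' median log2 fold change was 0.45, and that of all genes 0.015.

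**Figure D2:**
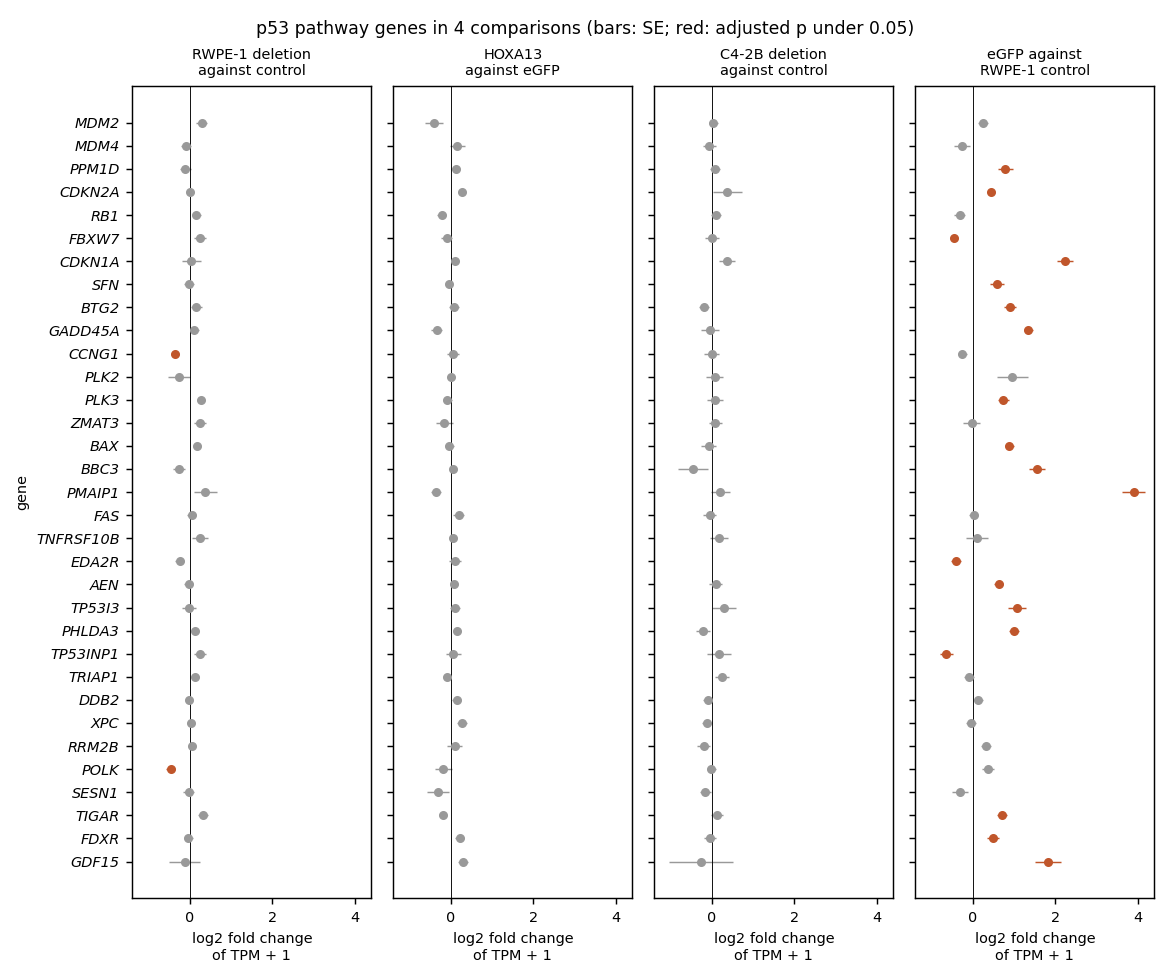
Log2 fold change of TPM + 1 for each member in 4 comparisons (points, limma; bars, standard error; red, adjusted p under 0.05). Red points number 2 in the RWPE-1 deletion, 0 in the HOXA13 and C4-2B deletion comparisons and 19 in the eGFP comparison; SFN and EDA2R have no point for C4-2B.

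Of the 11 apoptosis genes, 6 rose and 2 fell, with a median log2 fold change of 0.62. PMAIP1 encodes NOXA, a BH3-only protein that neutralises the survival factor MCL1. It was at 14.4, 11.6, 6.59, 17.6 and 8.59 TPM in the 5 controls and at 182, 158 and 201 TPM in the 3 eGFP libraries. Every eGFP library was far above every control, and the means (11.8 ± 4.42, SD, n = 5, and 180.3 ± 21.8, n = 3) were 15.3-fold apart, with a log2 fold change of 3.89 (SE 0.27, limma adjusted p 1.76e-05). BBC3, which encodes PUMA, another BH3-only protein, was at 7.49, 5.53, 3.98, 7.61 and 7.09 TPM in the controls and at 20.2, 19.3 and 20.8 TPM in the eGFP libraries, a log2 rise of 1.55 (SE 0.19). BAX was at 83.8, 78.8, 92.0, 106.5 and 82.6 TPM in the controls and 146.7, 171 and 174.8 TPM in the eGFP libraries, a log2 rise of 0.88 (SE 0.11). For both genes the groups did not overlap.

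TP53I3, an oxidoreductase gene tied to oxidative stress, was at 6.34, 6.01, 12.9, 8.64 and 9.82 TPM in the controls and 17.03, 20.5 and 19.1 TPM in the eGFP libraries. PHLDA3 was at 27.4, 24.6, 24.6, 31.9 and 32.6 TPM in the controls and 54.2, 59.0 and 58.0 TPM in the eGFP libraries. Both rose without overlap, by 1.07 (SE 0.22) and 1.00 (SE 0.11) on the log2 scale. AEN was at 19.4, 16.9, 24.4, 20.7 and 20.1 TPM in the controls and 31.4, 31.02 and 32.2 TPM in the eGFP libraries, a log2 rise of 0.62 (SE 0.11). EDA2R fell, from 3.94, 3.35, 3.46, 3.77 and 3.53 TPM to 2.36, 2.18 and 2.92 TPM, and TP53INP1 fell from 4.60, 3.80, 3.22, 4.61 and 5.23 TPM to 2.34, 1.86 and 2.94 TPM. The 2 falls, -0.41 (SE 0.12) and -0.65 (SE 0.16) on the log2 scale, were of low-level genes and lost their call without eGFP library 2 (limma adjusted p 0.0790 and 0.0554), EDA2R also without eGFP library 1 (adjusted p 0.0736). The death receptor genes FAS and TNFRSF10B had log2 fold changes of 0.01 and 0.09 and TRIAP1 of -0.10; none was called.

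**Figure D3:**
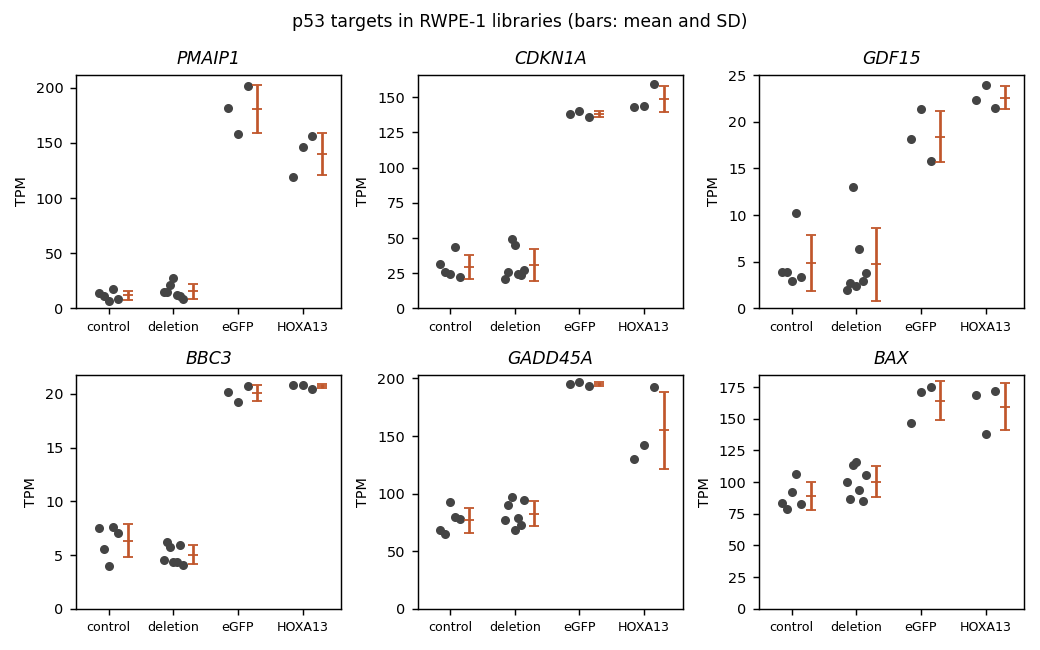
TPM of PMAIP1, CDKN1A, GDF15, BBC3, GADD45A and BAX in each RWPE-1 library (points) by group, with the mean and SD (orange). The eGFP and HOXA13 libraries lie above all control and deletion libraries for each of the 6 genes.

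Of the 8 arrest genes, 5 rose and 0 fell, with a median log2 fold change of 0.82. CDKN1A was at 31.8, 26.2, 24.2, 43.4 and 22.3 TPM in the controls and at 138, 140.0 and 136 TPM in the eGFP libraries. The eGFP libraries lay within a few TPM of each other and the means (29.6 ± 8.48, SD, n = 5, and 138 ± 2.14, n = 3) were 4.66-fold apart, with a log2 fold change of 2.22 (SE 0.19, limma adjusted p 5.69e-05). GADD45A was at 68.8, 65.0, 93.0, 79.8 and 78.2 TPM in the controls and at 194.8, 197 and 193 TPM in the eGFP libraries, a log2 rise of 1.34 (SE 0.11). BTG2, an antiproliferative transcription cofactor gene, was at 10.4, 9.70, 6.39, 8.36 and 10.4 TPM and then 17.1, 16.4 and 19.1 TPM, a log2 rise of 0.90 (SE 0.16). Neither gene's groups overlapped.

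PLK3 was at 15.1, 13.5, 18.2, 15.7 and 12.5 TPM in the controls and 24.99, 22.9 and 28.8 TPM in the eGFP libraries, a log2 rise of 0.74 (SE 0.13). SFN, already abundant, was at 575, 596, 425.5, 342 and 546 TPM in the controls and 743, 729.9 and 717 TPM in the eGFP libraries, a log2 rise of 0.58 (SE 0.18). The SFN call was lost when any 1 of the 3 eGFP libraries was left out (limma adjusted p 0.0641 to 0.0751), although its groups did not overlap. PLK2 was at 144, 130.3, 316, 99.4 and 82.5 TPM in the controls and 267, 268 and 267 TPM in the eGFP libraries. Control library 3 exceeded the eGFP libraries, so the groups overlapped and PLK2 was not called (log2 fold change 0.96, SE 0.37, limma adjusted p 0.0600). Without control 3 it was called, at 1.26 (adjusted p 0.00107). CCNG1 and ZMAT3, an RNA-binding zinc finger gene, had log2 fold changes of -0.26 and -0.03 and were not called.

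Of the 6 regulators, PPM1D and CDKN2A rose and FBXW7 fell. PPM1D, the phosphatase that opposes p53 activation, was at 5.49, 5.13, 7.30, 7.78 and 9.73 TPM in the controls and 12.8, 12.7 and 12.2 TPM in the eGFP libraries, a log2 rise of 0.78 (SE 0.18). CDKN2A was at 571.5, 527.5, 513, 664 and 547 TPM and then 759, 793 and 749.9 TPM, a log2 rise of 0.45 (SE 0.090). FBXW7 was at 15.7, 14.6, 18.1, 17.3 and 16.6 TPM and then 11.0, 11.4 and 12.7 TPM, a log2 change of -0.46 (SE 0.099). None of the 3 had overlapping groups. MDM2, the feedback inhibitor itself, was at 52.5, 49.0, 53.6, 63.1 and 53.8 TPM in the controls and 69.2, 52.9 and 72.6 TPM in the eGFP libraries. Its groups overlapped, and the log2 fold change of 0.24 (SE 0.12) was not called (limma adjusted p 0.131). It was called without eGFP library 2 (log2 fold change 0.38, adjusted p 0.0283).

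None of the 4 repair genes was called. DDB2, XPC, RRM2B and POLK, a translesion polymerase gene, had log2 fold changes of 0.13, -0.05, 0.32 and 0.36, and the limma adjusted p was lowest for POLK, at 0.0598. In the metabolic and secreted group 3 of 4 rose. GDF15 was at 3.89, 3.89, 2.98, 10.2 and 3.41 TPM in the controls and 18.1, 21.3 and 15.8 TPM in the eGFP libraries, a log2 rise of 1.83 (SE 0.31). TIGAR, which limits glycolysis, was at 12.2, 11.8, 10.5, 9.26 and 12.9 TPM and then 18.9, 18.2 and 20.1 TPM, a log2 rise of 0.71 (SE 0.12). FDXR, a mitochondrial electron transfer enzyme gene, was at 11.2, 9.63, 15.2, 12.9 and 15.1 TPM and then 17.1, 17.7 and 19.4 TPM, a log2 rise of 0.48 (SE 0.15). None of the 3 overlapped. The FDXR call was lost without control 1 (limma adjusted p 0.0585) and without any 1 eGFP library (0.0640 to 0.1003). SESN1, a sestrin that restrains growth signalling, had a log2 fold change of -0.32 and was not called; without control 3, its lowest control, it was called lower (-0.47, adjusted p 0.0118).

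Members with a close promoter element did not move as 1 group: AEN and FDXR were called higher, while DDB2, FAS and MDM2 were not called. Other p53 genes, from lists chosen with earlier results of these data known, were counted in the same fit. In it 24.4% of all genes rose and 22.7% fell. Of 59 further p53 targets, 26 rose and 8 fell (median log2 fold change 0.47); among those with the largest rise were the antiviral gene TRIM22 (3.36, SE 1.06), the integrin gene ITGA3 (3.25, SE 0.078) and YPEL3 (1.97, SE 0.20). TRIM22 varied from 1.26 to 56.2 TPM among the controls. Of 14 cell cycle genes that p53 represses through p21 and the DREAM complex, 0 rose and 11 fell (median -0.99). The mitotic kinase gene CDK1 had a mean of 92.6 ± 20.7 TPM (SD, n = 5) in the controls and 30.8 ± 2.25 TPM (n = 3) in the eGFP libraries, and CENPF, TOP2A and CCNB1 fell by 1.32, 1.26 and 1.27 on the log2 scale. Of 28 genes of the RB and E2F pathway, 9 rose and 10 fell, with CCND3 (1.40) and CDKN2D (1.30) higher and CCNA2 (-1.15) lower. Of 22 upstream regulators of p53, 7 rose and 7 fell.

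Markers of other cell types moved with this comparison. Summed over 5 leukocyte markers, levels were 9.92 to 50.5 TPM in the controls and 134.7 to 158.6 TPM in the eGFP libraries, almost all from CD68, while the defining marker PTPRC was at 0 in both groups. Summed over 6 fibroblast markers, levels were 2.86 to 8.70 TPM and 16.5 to 20.2 TPM, and 5 of the 6 stayed under 1 TPM in every library of both groups. Summed over 9 luminal markers, levels were 329.4 to 700.3 TPM in the controls and 870.7 to 958.9 TPM in the eGFP libraries; 2 of the 4 tested rose, FOXA1 (log2 fold change 1.35, at most 1.63 TPM) and KRT8 (1.08), and 0 fell. Of 7 basal markers 3 rose (LAMB3 2.79, ITGB4 1.00 and KRT17 0.82) and 2 fell (KRT15 -3.29 and KRT5 -1.56), and their sum was 11780 to 20530 TPM in the controls and 12110 to 12810 TPM in the eGFP libraries. The part of these markers in the result was not tested.

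Deleting the 7p15.2 region in RWPE-1 left the pathway largely without calls. Of 33 members, 0 rose and 2 fell (6.06%), against 6.46% of the 14186 genes tested called higher, 3.86% called lower and 10.3% called in all. The 2 were POLK and CCNG1. POLK was at 14.1, 16.1 and 19.1 TPM (lowest, median, highest) in the 7 deletion libraries and at 27.6, 27.8, 21.2, 23.3 and 19.4 TPM in the controls, a log2 change of -0.47 (SE 0.10, limma adjusted p 0.0119). CCNG1 was at 61.3, 80.6 and 90.8 TPM in the deletion libraries and 97.1, 91.4, 91.2, 109.4 and 107.2 TPM in the controls, a log2 change of -0.37 (SE 0.097, limma adjusted p 0.0315). For both, the highest deletion library was just below the lowest control, and for 31 members the groups overlapped; over all genes tested, 2.47% lay wholly below the controls and 4.24% wholly above (6.70% in all). The CCNG1 call was lost without deletion library 1 or 7 or control 1, 4 or 5 (adjusted p 0.0550 to 0.0673); the POLK call held in each of these.

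Both genes lie on chromosome 5. In the deletion libraries the median chromosome 5 gene was 0.35 to 0.45 below the control mean on the log2 scale, and 52.7% of its 594 tested genes were called lower, against 1.72% of genes elsewhere. The falls of POLK and CCNG1 were therefore about the size of their chromosome's median fold change, -0.39. PLK2, the other member on this chromosome, had a log2 fold change of -0.27 (SE 0.28) and was not called. Without chromosome 5 genes, 0 of 30 members were called.

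**Figure D4:**
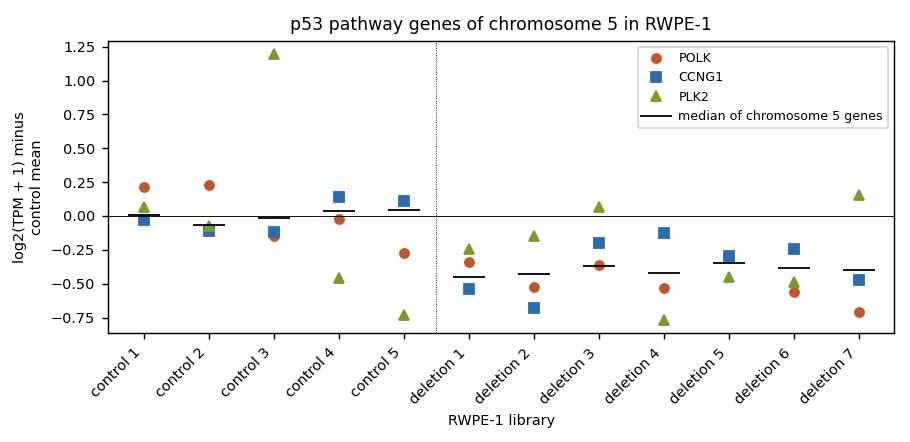
Deviation of POLK, CCNG1 and PLK2 from their control mean, in log2(TPM + 1), in each RWPE-1 control and deletion library; black bars give the median over chromosome 5 genes. The black bars are near 0 in the controls and between -0.45 and -0.35 in the deletion libraries, POLK lies below 0 in all 7 deletion libraries, and in deletion 5 its point is hidden by that of CCNG1.

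Among members that were not called, PLK3 (log2 fold change 0.26, limma adjusted p 0.0895), TIGAR (0.32, 0.104) and MDM2 (0.28, 0.160) had the lowest p-values of those with a positive fold change. PLK3 was called without control 3 (adjusted p 0.0253) and TIGAR without deletion library 6 (0.0333). CDKN1A was at 20.99, 26.0 and 49.4 TPM (lowest, median, highest) in the deletion libraries and PMAIP1 at 8.31, 14.7 and 27.9 TPM, both overlapping the controls. CDKN2A and SFN had log2 fold changes of -0.01 and -0.02. In the authors' deposited table for this comparison, 0 members were higher and 5 lower at an adjusted p under 0.05. The 5 were MDM4, BBC3, EDA2R and the chromosome 5 genes CCNG1 and POLK. It called 17.4% of all genes, 1436 higher and 1686 lower of 17985. Among 57 further p53 targets, 6 rose and 3 fell, against 6.46% and 3.86% of all genes. CSF1 (-1.24), TLR3 (-1.16), TNFAIP8 (-0.70) and SYTL1 (0.58) changed most. Without control 3 the counts of further targets were 7 and 6, with 13.9% of all genes called in either direction. The p53 regulator NPM1 and the DREAM target CDC25C, also called lower, had log2 fold changes of -0.65 and -0.56. NPM1, CDC25C and TNFAIP8 lie on chromosome 5, like POLK and CCNG1. The median fold change of that chromosome was -0.39, and 52.7% of its tested genes were called lower. Its part in these 3 falls was not tested.

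Forced HOXA13 was compared with eGFP, so both sides of this comparison come from transfected and sorted cells. None of 33 members was called by limma, and 4 had an unadjusted p under 0.05; over all 14814 genes 0.0135% were called, and 2002 had an unadjusted p under 0.05. The groups did not overlap for 7 members (21.2%), 4 higher and 3 lower, against 21.1% of all genes, 12.4% higher and 8.68% lower. CDKN2A came closest to a call, at 759, 793 and 749.9 TPM with eGFP and 938, 924 and 922 TPM with HOXA13. The groups did not overlap, and the log2 fold change was 0.27 (SE 0.045, limma adjusted p 0.207). PMAIP1 was at 119, 146 and 156 TPM with HOXA13, below the 3 eGFP libraries (log2 fold change -0.36, adjusted p 0.312). GADD45A was at 129.9, 142 and 193 TPM, with 1 HOXA13 library close to the eGFP level (-0.35, adjusted p 0.347), and GDF15 was at 22.3, 23.9 and 21.5 TPM (0.29, adjusted p 0.364). CDKN1A stayed high with HOXA13, at 143, 144 and 159 TPM, and was not called.

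The authors' deposited table for this comparison counts 4 members higher (CDKN2A, XPC, FDXR and GDF15) and 6 lower (RB1, FBXW7, GADD45A, CCNG1, PLK2 and PMAIP1), with 12.1% of all genes called. For CDKN2A, PMAIP1, GADD45A and GDF15 its log2 fold changes were 0.24, -0.35, -0.29 and 0.40, in the same direction as those from TPM. For CCNG1 and PLK2 the authors' deposited table gives -0.48 and -0.30. The TPM values of these 2 genes did not separate the groups: CCNG1 was at 74.0, 95.6 and 79.1 TPM with eGFP and 71.3, 99.7 and 86.8 TPM with HOXA13, and PLK2 at 267, 268 and 267 TPM and at 263, 273 and 269.8 TPM. Over all genes, 299 were higher and 1188 lower in the authors' deposited table; the cause of the difference was not tested. The HOXA13 and eGFP-against-control comparisons share the eGFP libraries, and the latter shares its controls with the deletion comparison.

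In C4-2B, deleting the region moved no member past the test. On simulated data this fit recovered 46.5% of 2-fold changes. With each line as 1 replicate, 3 against 3, 31 members passed the filter on low values, and SFN and EDA2R did not. None of the 31 was called by limma and none had an unadjusted p under 0.05, against 0% of 14820 genes called and 529 with an unadjusted p under 0.05. The log2 fold changes ran from -0.46 to 0.37 (limma adjusted p 0.993 or higher). BBC3 had the lowest, with line means of 3.77, 5.34 and 1.43 TPM in control1, control2 and control3 and 1.95, 2.19 and 1.71 TPM in m, le5 and ld9. Its control lines differed more from each other than the deletion lines did. Library 1 of control3 was at 0.09 TPM; without it the control3 mean was 2.10 TPM and the log2 fold change -0.63 (SE 0.26). CDKN1A had a log2 fold change of 0.36 (SE 0.19), with line means of 21.6, 18.7 and 15.8 TPM in the controls and 25.1, 26.0 and 19.3 TPM in m, le5 and ld9. The control3 mean includes its library 1 at 6.28 TPM; the other 2 libraries were at 19.0 and 22.2 TPM, and without library 1 the log2 fold change was 0.19 (SE 0.13). For 2 of the 31 members (6.45%), PHLDA3 and DDB2, every deletion line mean was below every control line mean and for 0 above, against 2.68% and 6.86% of all genes (9.53% in either direction). The PHLDA3 means were 15.4, 16.2 and 14.1 TPM in the controls and 12.7, 13.8 and 10.3 TPM in m, le5 and ld9. With its library 1 at 4.64 TPM left out, the control3 mean was 18.8 TPM and the PHLDA3 log2 fold change -0.42 in place of -0.22. The DDB2 means were 25.4, 25.5 and 25.2 TPM in the controls and 23.8, 25.04 and 21.8 TPM in m, le5 and ld9, so le5 lay just under control3. Without library 1 of control3, 0 members were called (lowest limma adjusted p 0.875). By the authors' deposited table, members called higher numbered 0 and those called lower 3 (BTG2 -0.34, PHLDA3 -0.46 and XPC -0.21). It called 8.56% of all genes, 741 higher and 720 lower of 17075.

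Several members separated single C4-2B lines of the same condition. Among the 3 control lines 6 of 31 members (19.4%) were called by limma's moderated F test, against 12.2% of all genes, and among the 3 deletion lines 9 of 31 (29.0%), against 19.2%. The replicates here are libraries of 1 line, so the test measures the spread within lines. GDF15, TP53INP1, CCNG1 and PMAIP1 were called in both sets. For each of these, control3 was the lowest control line and m the lowest deletion line. The part of the lower gene counts and higher mitochondrial shares of control3 in this order was not tested. Calls were lost when single libraries were left out: in the 9 fits that each left out 1 control library, PMAIP1 lost its call in 8, TP53INP1 and CCNG1 in 7 and GDF15 in 4, with adjusted p up to 0.126, 0.122, 0.0689 and 0.0545. In the 9 fits that each left out 1 deletion library, CCNG1 lost its call in 6, GDF15 in 3, PMAIP1 in 2 and TP53INP1 in 0.

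**Figure D5:**
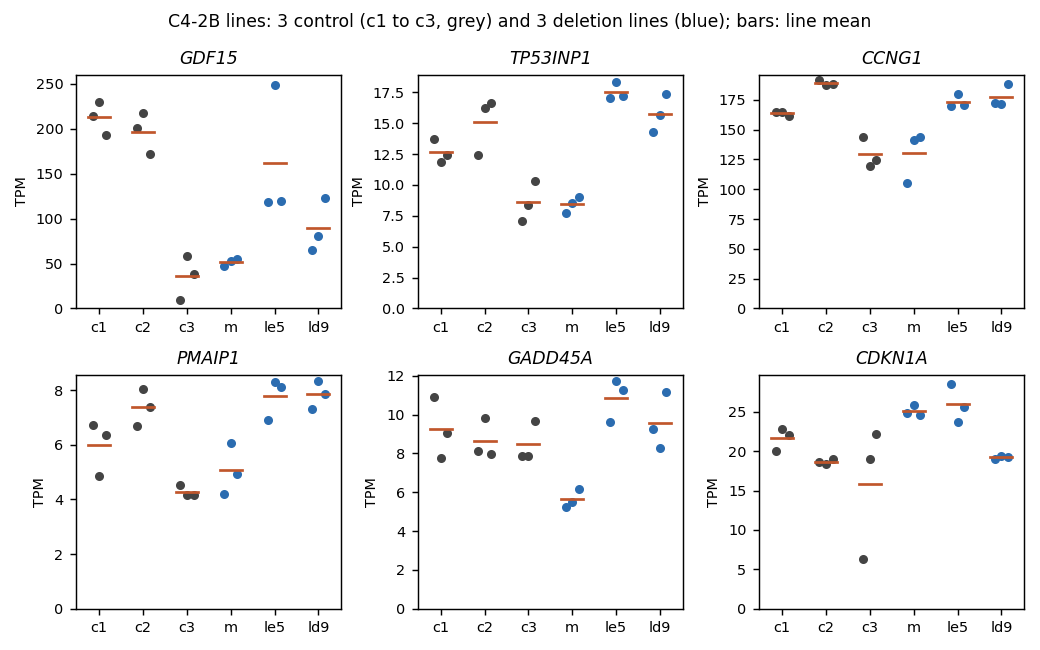
TPM of GDF15, TP53INP1, CCNG1, PMAIP1, GADD45A and CDKN1A in the 3 libraries of each C4-2B line (grey, control1 to control3 as c1 to c3; blue, deletion lines; bars, line mean). Lines c3 and m are low for GDF15, TP53INP1, CCNG1 and PMAIP1, m alone for GADD45A, and library 1 of c3 is far below the rest for CDKN1A.

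GDF15 was at 214, 230.0 and 194 TPM in control1, at 200.3, 218 and 171 TPM in control2 and at 9.56, 58.7 and 38.6 TPM in control3. In the deletion lines it was at 46.7, 52.9 and 55.4 TPM in m, 118, 248 and 120.0 TPM in le5 and 64.6, 80.4 and 122.7 TPM in ld9. Control3 and m did not reach the level of any library of the other lines of their set. TP53INP1 was at 13.7, 11.8 and 12.4 TPM in control1, 12.4, 16.2 and 16.6 TPM in control2 and 7.08, 8.39 and 10.3 TPM in control3. It was at 7.76, 8.55 and 9.01 TPM in m, 17, 18.4 and 17.2 TPM in le5 and 14.3, 15.7 and 17.3 TPM in ld9. Again every library of control3 and of m was below every library of the other lines of its set, and TP53INP1 had the smallest adjusted p of the members among the deletion lines (limma moderated F, 0.000287).

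CCNG1 was at 165, 164 and 161.5 TPM in control1, 192, 187 and 188 TPM in control2 and 144, 119.6 and 124 TPM in control3. It was at 105.5, 141.6 and 143.5 TPM in m, 169.5, 179.8 and 170.3 TPM in le5 and 172, 171 and 188 TPM in ld9. The 3 control lines thus occupied 3 separate ranges, and m lay below le5 and ld9. PMAIP1 was at 6.71, 4.87 and 6.37 TPM in control1, 6.70, 8.03 and 7.37 TPM in control2 and 4.53, 4.17 and 4.17 TPM in control3. It was at 4.20, 6.07 and 4.93 TPM in m, 6.91, 8.29 and 8.11 TPM in le5 and 7.32, 8.35 and 7.86 TPM in ld9. Control3 and m again lay below the other lines of their set, at levels far under the 119 to 201 TPM of the transfected RWPE-1 libraries.

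Among the control lines, CDKN2A and TP53I3 were also called. CDKN2A was at 6.24, 8.42 and 9.71 TPM in control1, 27.1, 24.2 and 21.3 TPM in control2 and 12.1, 21.8 and 25.01 TPM in control3, so control1 was the low line. Its call was lost in 7 of the 9 fits without 1 library. TP53I3 was at 6.74, 6.70 and 4.69 TPM in control1, 5.13, 4.78 and 5.17 TPM in control2 and 2.14, 2.66 and 3.11 TPM in control3, with control3 lowest, and lost its call in 5 of the 9. Among the deletion lines, GADD45A was at 5.24, 5.50 and 6.16 TPM in m, 9.63, 11.7 and 11.3 TPM in le5 and 9.25, 8.27 and 11.2 TPM in ld9. TNFRSF10B was at 54.3, 59.6 and 64.0 TPM in m, 73.4, 72.1 and 76.0 TPM in le5 and 69.8, 69.4 and 75.5 TPM in ld9. Line m was below the others for both. CDKN1A had another order, at 24.9, 25.9 and 24.5 TPM in m, 28.6, 23.7 and 25.6 TPM in le5 and 19.1, 19.4 and 19.3 TPM in ld9. PHLDA3 was at 11.7, 12.7 and 13.6 TPM in m, 13.7, 13.2 and 14.5 TPM in le5 and 10.4, 9.69 and 11.0 TPM in ld9. For both of these ld9 was the low line. TIGAR was highest in ld9, at 23.7, 22.4 and 22.1 TPM, against 18.9, 20.0 and 19.0 TPM in m and 18.5, 19.7 and 19.9 TPM in le5. In the 9 fits that each left out 1 deletion library, TIGAR lost its call in 8 (limma adjusted p 0.0466 to 0.110), PHLDA3 in 3, TNFRSF10B in 1 and GADD45A and CDKN1A in 0.

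The count among control lines moved with the library left out, and so did the share of all genes called. Without library 1 of control3, 12 of 31 members (38.7%) were called, against 30.2% of all genes: the 6 above and FBXW7, BTG2, BBC3, TNFRSF10B, TRIAP1 and RRM2B. Without library 3 of control3 there were 7, against 16.6% of all genes, and without any 1 of the other 7 control libraries 0 to 2, against 4.00% to 5.69%.

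Likeness to CDKN1A was described within each line. Over the 12 edited and control RWPE-1 libraries, which share 1 parent line and 2 genotypes, the members with the highest Spearman correlation with CDKN1A were TNFRSF10B (0.72), PMAIP1 (0.59), EDA2R (0.57), BAX (0.53) and GDF15 (0.52). Over the 18 C4-2B libraries, which fall into 6 lines of 3 libraries, they were PPM1D (0.57), AEN (0.40), MDM4 (0.26), MDM2 (0.25) and TP53I3 (0.24). Without library 1 of control3 they were PPM1D (0.49), MDM2 (0.46), ZMAT3 (0.43), AEN (0.29) and MDM4 (0.17). These are descriptions without a test.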

How the data were processed

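The authors deposited 2 tables of TPM values, 1 for the 18 RWPE-1 and 1 for the 18 C4-2B RNA-seq libraries, and 3 tables of their own comparisons of the genes. The authors' deposited comparison tables give a mean signal over libraries (normalized counts), p-values, and a log2 fold change with a score for its standard error. Per the submitters' processing notes, build GRCh37 was used with RSEM 1.3.0, DESeq2 1.14.1, featureCounts 1.5.1, STAR 2.5.2b, Trimmomatic 0.35 and FastQC; which tool gave which table is not given in the sources used here. TPM keeps no depth, so sequencing depth per library is unknown and no counting interval is given. Libraries were made with a stranded mRNA kit, per the labels' protocols. Hi-C libraries of RWPE-1 are not analysed here.

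Gene IDs were matched to symbols through the supplied name table (55528 of 60252 IDs). A gene entered a test if the number of samples with at least 1 TPM reached the size of the smaller group. Fits used limma 3.58.1 in R 4.3.3 (two-sided tests, eBayes with a trend) on log2(TPM + 1), with the groups of 1 comparison in each fit, and fold changes are on that scale, which understates the change of low genes. p-values were adjusted by Benjamini-Hochberg over all genes tested, and genes were called at an adjusted p under 0.05. C4-2B libraries were averaged by line. Lines of 1 condition were compared with a moderated F test. The scripts were tested on simulated data. Of simulated 2-fold changes, 92.5% were recovered in the RWPE-1 deletion fit and 77.5% in the eGFP fit. The HOXA13 fit recovered 65.5% and the C4-2B deletion fit 46.5%. Promoter windows came from RefSeq on GRCh38.p14.

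Every member is accounted for, values in every sample (the lowest, median and highest for groups of more than 5) are given for members called or standing apart, and up to 4 genes are named from each further list by size of change. Some genes counted in these lists are not reported by name here. The members and lists were chosen with earlier results of these data known. Alternatives were another pseudocount (0.1), no filter, median-ratio scaling, a replicate block, other sets of libraries and leaving out each library or line; leaving out library 1 of C4-2B control3 from the deletion test, from the further lists among control lines and from the likeness to CDKN1A, and control 3 from the further lists, were added after seeing the data.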

Additional observations from a re-analysis of the deposited data

Results flagged for a closer look

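Single RWPE-1 libraries stood far from the rest of their group for 7 members, in 8 of 66 combinations of member and group tested by Dixon's ratio; chance alone marks about 1 in 20 groups. Deletion library 4 accounted for 3 of them: FBXW7 was at 31.5 TPM there against 14.5 to 20.5 TPM in the other 6 deletion libraries, FAS at 33.5 TPM against 21.2 to 26.5 TPM, and AEN at 14.4 TPM against 18.9 to 21.7 TPM. Control library 3 accounted for 2: PLK2 was at 315.7 TPM against 82.5 to 143.9 TPM in the other 4 controls, and SESN1 at 7.64 TPM against 12.6 to 13.8 TPM. GDF15 was high in 1 library of each group, at 13 TPM in deletion library 3 against 2.01 to 6.40 TPM, and at 10.2 TPM in control 4 against 2.98 to 3.89 TPM. XPC was at 22.9 TPM in deletion library 5 against 18.5 to 20.1 TPM.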

How the results depend on the processing

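The number of members called in the RWPE-1 deletion, 2, became 1 without a filter on low values, 0 with the replicate block, 0 without chromosome 5 genes and 1 to 3 when single libraries were left out. The 6 members called among C4-2B control lines became 3 with median-ratio scaling and 0 to 12 when single libraries were left out. The counts for the HOXA13 comparison (0), the C4-2B deletion (0), the eGFP comparison (19, with 16 to 22 when single libraries were left out), the deletion lines (9, with 6 to 7) and the levels of the 2 lines (10, with 7 to 12) stayed within 1.5 times of their value or at 0 under the alternatives run. With the replicate block the eGFP comparison called 17 members, losing EDA2R (adjusted p 0.0923) and TP53INP1 (0.0886), and CCNG1 and POLK lost their calls in the deletion (0.0723 and 0.113); the HOXA13 comparison stayed at 0. Library numbers did not pair samples: correlations of same-numbered libraries ran from -0.18 to 0.14 in the deletion, where only number 4 correlated best with its own number, and from -0.017 to 0.0059 in the HOXA13 comparison. No paired analysis was possible for C4-2B because its lines share no numbers across conditions. Over all genes, the deletion count of 1464 became 450 with the replicate block and 937 without chromosome 5; the HOXA13 count of 2 became 131 when all 18 RWPE-1 libraries were fitted together, 1 without a filter or with the block and 1 to 5 when single libraries were left out; the C4-2B deletion count of 0 became 6 without a filter, 19 with libraries blocked by line and 0 to 7 when single lines were left out; the control-line count of 1881 became 1010 with median-ratio scaling and 635 to 4796 when single libraries were left out; and the deletion-line count of 2947 became 1943 to 2374. The cause was not tested where the data or the alternative's construction do not show it. TPM gives no depth, so low members such as EDA2R in C4-2B cannot be given a counting limit.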

Other observations

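Further p53 genes were counted between the lines by the same measure as the members, where 13.3% of all genes were higher in C4-2B and 14.0% lower. Of 56 further p53 targets measured, 3 were higher and 13 lower in C4-2B, with a median log2 difference of -0.39 against 0.15 for all genes. Of 14 cell cycle genes of the DREAM list 2 were higher and 0 lower, a share of higher genes close to that of all genes. Of 28 RB and E2F genes 2 were higher and 3 lower, and of 22 upstream regulators of p53 2 and 1. No test was made, as for the members.

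The 4 lists were also counted among single C4-2B lines by limma's moderated F test, where 12.2% of all genes were called among the control lines and 19.2% among the deletion lines. Of the further p53 targets, 11 of 52 were called among the control lines and 15 of 53 among the deletion lines. Of 27 RB and E2F genes 6 and 10 were called, of 14 DREAM genes 4 and 4, and of 22 upstream regulators 1 and 8. Without library 1 of control3 the counts among the control lines were 26 further targets, 16 RB and E2F genes, 9 DREAM genes and 4 regulators, with 30.2% of all genes called. In the HOXA13 and C4-2B deletion comparisons 0 genes of these 4 lists were called; at an unadjusted p under 0.05 there were 7 further targets of 60 in the first and 0 of 52 in the other.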
